A study of Mus musculus with 3 samples.

Results

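The 10 transcription factors tied to the identity and layering of the bladder epithelium, Pparg, Gata3, Foxa1, Foxq1, Elf3, Klf4, Klf5, Grhl3, Ovol1 and Trp63, were followed by gene symbol in single-cell RNA counts from mouse bladder and from bladder assembloids. All 10 were present among the 31053 mouse genes of the count tables, and all 10 passed the minimum level used below in bladder urothelium. The series holds 3 libraries, 1 for each group. The bladder library was a pool of bladders from 8 wild-type C57BL/6 mice aged 8 to 9 weeks. The 1-day library pooled 3 assembloids collected 1 day after reconstitution, and the 7-day library pooled 3 assembloids collected 7 days after reconstitution. Assembloids are multicellular constructs rebuilt in culture, and the labels give neither the strain nor the origin of the cells in them. All 3 were dissociated with enzymes and profiled with a droplet kit that reads the 3′ ends of polyadenylated RNA.

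The urothelium is a layered epithelium, with basal cells that carry Krt5, intermediate cells, and surface umbrella cells that carry uroplakins and, when mature, Krt20. Pparg is a nuclear receptor that pairs with retinoid X receptors and, with the zinc-finger factor Gata3 and the forkhead factor Foxa1, is known for switching on urothelial differentiation genes. Trp63, a relative of p53, is known for maintaining basal cells and stratification, and Grhl3 for the terminal differentiation of umbrella cells.

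Each group was 1 pooled library, so no comparison had a replicate check, and no p-value or standard error was computed. Levels are mouse unique molecular identifiers (UMIs, single captured RNA molecules) summed over the cells of a group, per 1000000 UMIs (CPM). Intervals are 95% and cover counting error only. A gene was called higher or lower where the ratio was at least 2-fold, its interval excluded 1, and the higher group reached 20 CPM. Cells were grouped without the 10 genes, Krt5 and Krt20, and groups that carried at least 3 epithelial markers and led with them were taken as urothelial-like. These were 2691 of 6775 bladder cells (39.7%), 1465 of 8258 cells at 1 day (17.7%) and 2126 of 8172 cells at 7 days (26.0%), with median depths of 21267, 4836 and 8332 UMIs. Different clusters made up the class: clusters 0 (1539 cells) and 2 (1096 cells) in bladder, and clusters 6 (884 cells) and 11 (552 cells) at 1 day. The 25 urothelial markers summed to 32384, 21765 and 29572 CPM. The clusters were named by these same markers, so the sums describe the class and do not check its name. The uroplakin gene Upk3a was at 5098 CPM in bladder against 194 CPM at 1 day.

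The 7-day library held both kinds of cell. Of its 2126 urothelial-like cells, 624 had nearest neighbours almost only among 1-day cells, 1478 almost only among bladder cells, and 24 lay between. They are called assembloid-side and bladder-side below, and the main 7-day values are given for both. Few cell barcodes were shared among kept cells, 22 between the assembloid libraries, 24 between bladder and 7 days and 19 between bladder and 1 day. Before cells were filtered, the same pairs shared 114, 30 and 21 barcodes. Cells with Krt5 at 10 or more per 10000 UMIs and no Krt20 UMI, called Krt5-high, numbered 183, 303 and 249 in bladder, at 1 day and at 7 days. Cells with at least 1 Krt20 UMI and less Krt5, called Krt20-positive, numbered 1166, 3 and 426.

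**Figure D1:**
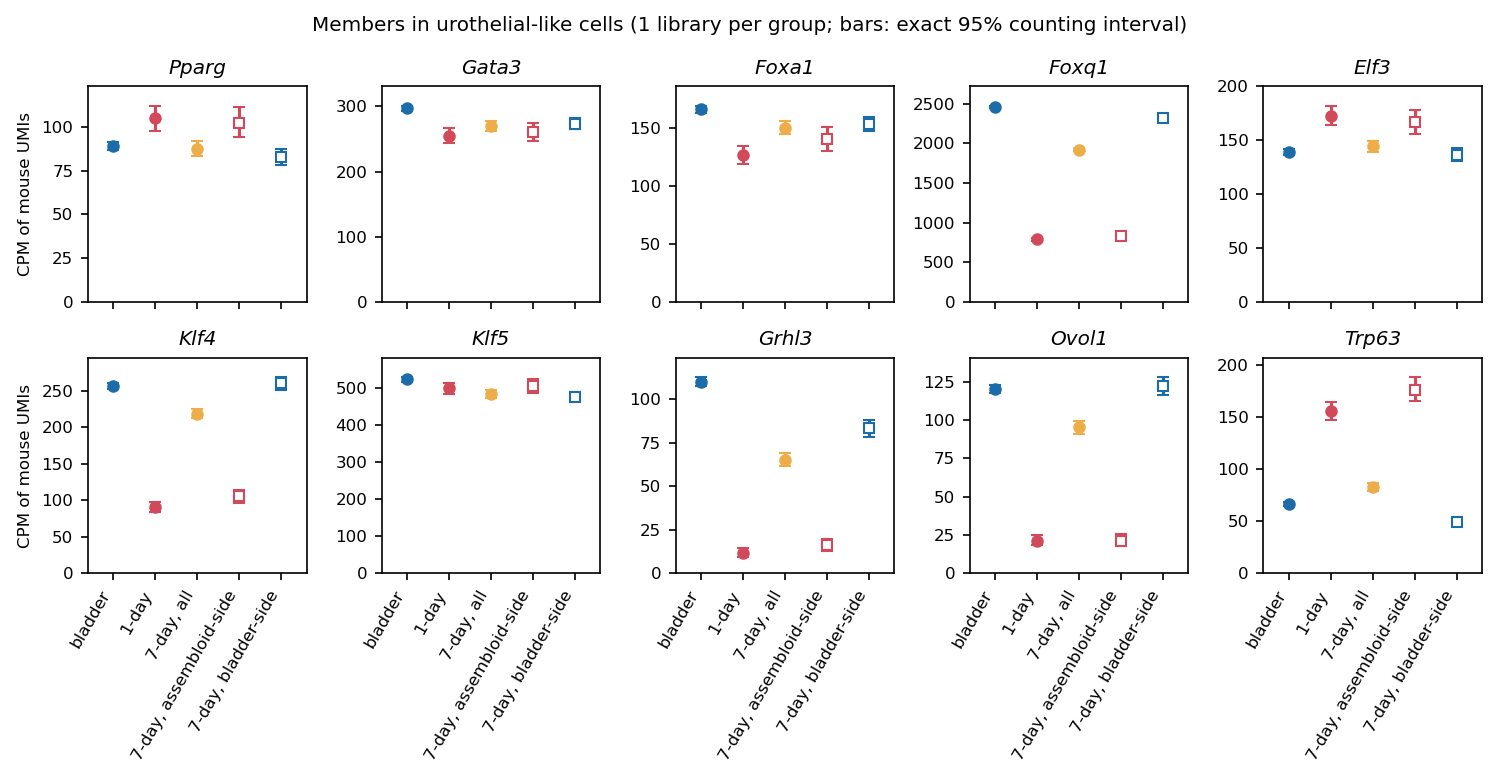
Level of each of the 10 factors (CPM, linear axis scaled for each factor) in urothelial-like cells of the 3 libraries and of both sides of the 7-day library, with 95% counting intervals. Grhl3, Ovol1, Klf4 and Foxq1 sat lower at 1 day than in bladder and Trp63 higher, and the assembloid-side cells at 7 days sat near the 1-day values.

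In urothelial-like cells 1 day after reconstitution, 4 of the 10 factors were called lower than in bladder and 1 higher. Grhl3, Ovol1, Foxq1 and Klf4 were the lower ones, and Trp63 was the higher one. Over all 5766 genes tested, 11.0% were called higher and 7.09% lower. The median log2 ratio was −0.31 over the 10 and 0.23 over all genes tested.

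Grhl3, a grainyhead factor of barrier epithelia (chr4:135541888-135573630, minus strand, mm10), had the largest difference. Its level was 109.7 CPM in bladder (6994 UMIs, interval 107 to 112), 11.9 CPM at 1 day (96 UMIs, interval 9.66 to 14.6) and 65.2 CPM at 7 days. The 1-day level was thus 9.15-fold lower than that of bladder (log2 −3.19, interval −3.51 to −2.91). Ovol1, a zinc-finger repressor of epithelial progenitor genes (chr19:5549136-5560646, minus strand), was at 120.4 CPM in bladder, 21.5 CPM at 1 day and 95.2 CPM at 7 days. It was 5.59-fold lower at 1 day than in bladder (log2 −2.48, interval −2.71 to −2.27). For both genes the bladder library was highest, the 1-day library lowest, and no intervals overlapped.

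Foxq1, a forkhead factor expressed in epithelia (chr13:31556134-31560976, plus strand), was at 2465 CPM in bladder, 790.1 CPM at 1 day and 1922 CPM at 7 days. It was 3.12-fold lower at 1 day (log2 −1.64, interval −1.68 to −1.60), and was still detected in 81.2% of 1-day urothelial-like cells thinned to 2500 UMIs, against 96.8% in bladder. Klf4, a zinc-finger factor of differentiating epithelia that is also an immediate-early gene (chr4:55527143-55532466, minus strand), was at 257 CPM in bladder, 90.9 CPM at 1 day and 219 CPM at 7 days. It was 2.82-fold lower at 1 day (log2 −1.50, interval −1.61 to −1.39). The summed level of 17 immediate-early genes in the same cells was 7379 CPM in bladder, 5821 CPM at 1 day and 6610 CPM at 7 days, and its part in the Klf4 difference was not tested.

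Trp63 (chr16:25683763-25892102, plus strand) went the other way. Its level was 66.6 CPM in bladder (4244 UMIs, interval 64.6 to 68.6), 155 CPM at 1 day (1250 UMIs, interval 147 to 164) and 83.0 CPM at 7 days. The 1-day level was 2.33-fold higher than that of bladder (log2 1.22, interval 1.13 to 1.31). It was the lowest of the 3 libraries in bladder and the highest at 1 day, with no overlap of intervals.

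The remaining 5 factors were not called in this comparison. Pparg was at 89.0 CPM in bladder, 105 CPM at 1 day and 87.7 CPM at 7 days (log2 0.24 at 1 day against bladder, interval 0.13 to 0.34). Gata3 was at 297, 255 and 269.9 CPM in the same order (log2 −0.22, interval −0.29 to −0.15). Foxa1 was at 167, 127 and 151 CPM (log2 −0.39, interval −0.49 to −0.30). These 3 genes, the differentiation trio named above, thus stayed within 1.5-fold between bladder and 1 day. Elf3, an ETS factor of simple and stratified epithelia, was at 139, 173 and 144 CPM (log2 0.32, interval 0.23 to 0.40). Klf5, a zinc-finger factor of epithelial progenitors and of urothelial maturation, was at 524, 500.1 and 485 CPM, the smallest ratio of the 10 (log2 −0.07, interval −0.12 to −0.02).

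**Figure D2:**
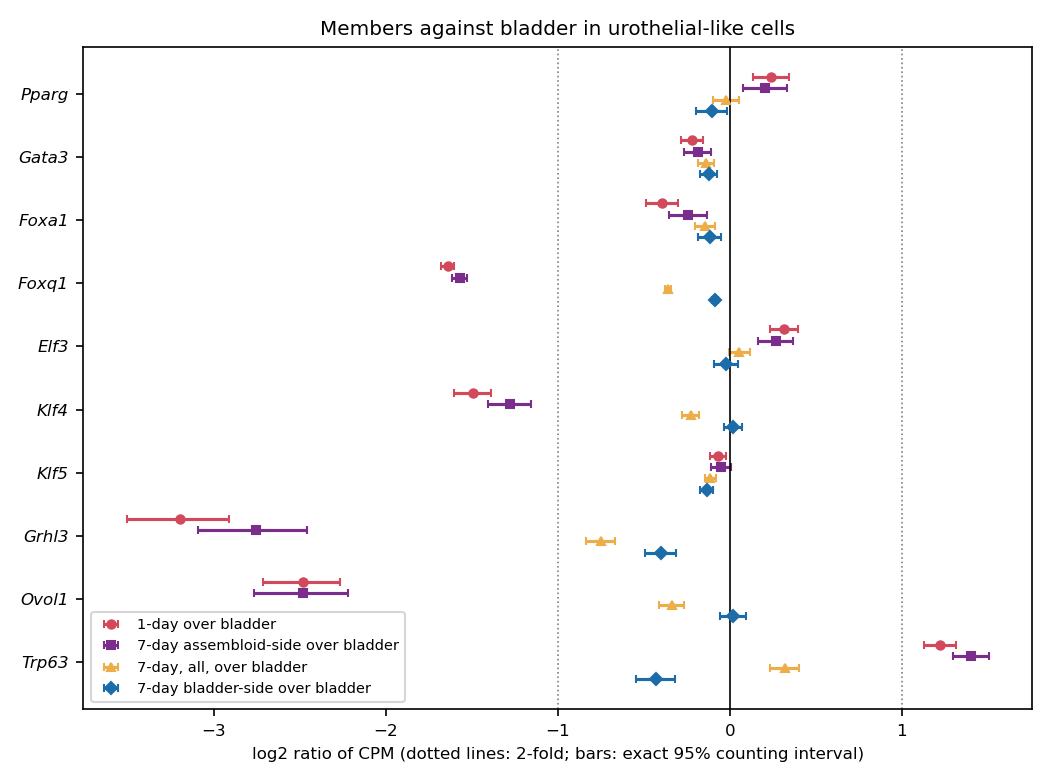
Log2 ratio of each factor between libraries in urothelial-like cells, with 95% counting intervals and dotted lines at 2-fold. At 1 day against bladder, Grhl3 lay at −3.19 and Trp63 at 1.22, with Pparg, Gata3, Foxa1, Elf3 and Klf5 inside the 2-fold lines.

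The 1-day and bladder cells also differed in oxygen-response genes, in depth and in scaling. A list of 15 hypoxia genes summed to 918 CPM in bladder, 6800 CPM at 1 day and 2529 CPM at 7 days, and its part in the differences above was not tested. The median ratio of genes above 20 CPM in both groups was shifted by 0.16 on the log2 scale. With median-of-ratios scaling, which removes that shift, the same 5 factors passed the thresholds in the same direction, with Grhl3 at −3.36, Ovol1 at −2.65, Foxq1 at −1.80, Klf4 at −1.66 and Trp63 at 1.06. Markers of smooth muscle summed to 734 CPM in the 1-day urothelial-like cells and 25.1 CPM in those of bladder, pericyte markers to 583 and 114 CPM, and fibroblast markers to 432 and 931 CPM. The 1-day library held no pericyte-like cells. In its other cells pericyte markers summed to 83.0 CPM, less than in its urothelial-like cells. Smooth muscle markers there summed to 17075 CPM and fibroblast markers to 8599 CPM. The pericyte list, which holds Ndufa4l2, summed at 1 day to 1005 CPM in cluster 11 and 317 CPM in cluster 6. Hypoxia genes in these 1-day cells summed to 9320 CPM in cluster 11 and 5219 CPM in cluster 6. The part of these markers was not tested either.

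Promoter sequence from RefSeq (build GRCm38.p6, 250 bases before to 50 after the start) was available for 6 of the 10 genes in 8 windows. Foxq1, Klf5, Ovol1 and Trp63 had none in the table. The windows were searched on both strands for 7 short motifs of the families of these factors, and all 32851 windows of the table were searched in the same way. The forkhead motif TGTTTAC was in 3.65% of all windows and the grainyhead core AACCGG in 6.83%. The nuclear receptor core AGGTCA was in 16.3% and the Ovol motif CCGTTA in 2.76%. The Klf motif CCACACCC was in 3.56%, the Gata motif AGATAA in 11.2% and the ETS motif GGAAGT in 23.8%. In all, 4 matches were found. The forkhead motif of Foxa1 and the nuclear receptor cores of Pparg are motifs of each gene's own family, and the Elf3 window held a grainyhead core. They are shown 5′ to 3′ on the gene's strand, with the match in capitals.
Pparg window 1, chr6:115361104-115361133, plus strand: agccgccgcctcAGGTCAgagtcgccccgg
Pparg window 2, chr6:115362328-115362357, plus strand: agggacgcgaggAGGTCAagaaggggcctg
Foxa1, chr12:57546234-57546263, minus strand, where GTAAACA is the reverse complement of the forkhead motif: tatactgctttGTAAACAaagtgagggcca
Elf3, chr1:135258523-135258552, minus strand: agctcaggttacAACCGGggacgtacgccg
The matches began 28 and 9 bases before the start of Pparg windows 1 and 2, 141 bases before that of Foxa1 and 68 bases before that of Elf3. In the GENCODE gene annotation, all 4 matches lay inside the span of their gene. The stretches shown for Pparg and Elf3 overlapped exons there, and that of Foxa1 did not. Windows of Klf4, Grhl3 and Gata3 and window 3 of Pparg held none of the 7 motifs. Of these genes, Klf4 and Grhl3 were called lower at 1 day, and Gata3 and Pparg were not called. The 250 bases before each start of Klf4 and Grhl3 are shown as examples.
Klf4, chr4:55532476-55532725, minus strand: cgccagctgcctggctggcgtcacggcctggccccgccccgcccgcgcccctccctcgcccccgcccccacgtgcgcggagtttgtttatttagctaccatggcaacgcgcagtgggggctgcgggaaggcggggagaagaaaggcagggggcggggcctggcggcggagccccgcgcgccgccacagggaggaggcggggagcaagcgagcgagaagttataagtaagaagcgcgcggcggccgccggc
Grhl3, chr4:135573633-135573882, minus strand: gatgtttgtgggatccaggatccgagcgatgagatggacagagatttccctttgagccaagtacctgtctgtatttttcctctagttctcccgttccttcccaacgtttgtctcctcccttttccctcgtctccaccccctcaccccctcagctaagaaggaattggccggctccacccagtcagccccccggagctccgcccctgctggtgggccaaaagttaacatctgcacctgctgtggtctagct
A match describes the letters in these windows only, and the data hold no measurement of binding.

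The genes around the 10 were read from 7 lists. Of 32 relatives in the same families, 19 were tested at 1 day against bladder, with 1 called higher, 2 lower and a median log2 ratio of 0.12. Klf6, another immediate-early member of the Klf family, was the larger of the lower ones, at 130 CPM against 901 CPM in bladder (log2 −2.79). Gata6 was at 22.1 against 47.4 CPM (log2 −1.10), and the forkhead gene Foxc1 was higher, at 47.2 against 16.3 CPM (log2 1.54). Of the paralogues nearest in role to the lower members, Grhl2, at 30.8 against 22.0 CPM, was not called. Ovol2, at 3.48 against 4.03 CPM, lay below the minimum of 20 CPM and could not be called. Of 29 other epithelial regulators, 22 were tested, with 4 higher, 2 lower and a median of 0.06. Fosl1, an AP-1 subunit, was lower at 4.84 CPM against 100.2 CPM in bladder (log2 −4.35), and Myc, a growth regulator, at 8.32 against 45.4 CPM (log2 −2.44). Higher were Bhlhe40, a hypoxia-inducible repressor, at 38.4 against 6.16 CPM (log2 2.64), and Hes1, a Notch target, at 354 against 91.5 CPM (log2 1.95).

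Products of differentiated urothelium and of basal cells moved apart. Of 24 differentiation products, 23 were tested, with 3 higher, 11 lower and a median log2 ratio of −0.93. Upk3a was lower (log2 −4.72), and the monooxygenase gene Fmo5 was lower (log2 −3.67), while the tight-junction gene Cldn3 was higher, at 35.3 against 0.392 CPM (log2 6.46). Of 20 basal products, 15 were tested, with 9 higher, none lower and a median of 1.20. The basal keratin Krt14 was at 48.2 CPM at 1 day against 1.21 CPM in bladder (log2 5.31), and Col17a1, a hemidesmosome collagen, at 42.4 against 0.910 CPM (log2 5.53). Of 20 lipid genes known as targets of Pparg, 13 were tested, with 1 higher, 3 lower and a median of −0.59. Pdk4, a kinase that restrains glucose oxidation, was at 4.22 against 104 CPM (log2 −4.61), Plin2, a lipid droplet coat protein, at 134 against 551 CPM (log2 −2.04), and Fabp4, a fatty acid carrier, was higher at 513 against 130 CPM (log2 1.98). Of 17 immediate-early genes, 16 were tested, with 1 higher and 4 lower (median −0.66). The orphan nuclear receptor gene Nr4a1 was lower at 57.5 against 216 CPM (log2 −1.91), and Ier2 was higher at 355 against 160.3 CPM (log2 1.15). Of 15 hypoxia genes all 14 tested were higher (median 2.95), among them Egln3, an oxygen-sensing prolyl hydroxylase, at 300.2 against 14.4 CPM (log2 4.39).

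In the whole 7-day library, the 4 factors that were lower at 1 day were called higher than at 1 day. Grhl3 was 5.44-fold higher (log2 2.44), Ovol1 4.42-fold (log2 2.14), Foxq1 2.43-fold (log2 1.28) and Klf4 2.41-fold (log2 1.27). Trp63 was not called (log2 −0.90, interval −1.01 to −0.80). Of 5656 genes tested, 4.33% were called higher and 4.12% lower.

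The 7-day values split by side. In the 624 assembloid-side cells, Grhl3 was at 16.1 CPM, Ovol1 at 21.4 CPM, Foxq1 at 829.7 CPM and Klf4 at 106 CPM, and Trp63 at 176 CPM. With these cells alone, none of the 10 was called against the 1-day library (0.271% of genes tested). In the 1478 bladder-side cells the same genes were at 83.0, 122, 2323, 260.2 and 49.4 CPM. The higher 7-day levels of the 4 factors were thus found in the bladder-side cells and not in the assembloid-side cells. The hypoxia list divided the same way, at 6851 CPM on the assembloid side and 961 CPM on the bladder side. Which cells of the 7-day library had been in culture cannot be told apart from the files.

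Against bladder, none of the 10 was called in the whole 7-day library, where 1.42% of 5063 genes tested were called in either direction. Grhl3 had the largest ratio (log2 −0.75, interval −0.84 to −0.67). The assembloid-side cells alone differed from bladder in the same 5 factors as the 1-day cells, with Grhl3 at −2.76, Ovol1 at −2.48, Foxq1 at −1.57, Klf4 at −1.28 and Trp63 at 1.40 on the log2 scale, where 17.5% of genes tested were called. Beside them, 3 differentiation products were higher and 9 lower (median −0.81), 8 basal products higher and none lower (median 1.42), and 1 lipid gene higher and 3 lower (median −0.39). The bladder-side cells alone differed from bladder in none (0.287% called), with Trp63 at −0.43 and Grhl3 at −0.40. Since sides were set by likeness to the other libraries, these ratios are descriptions of the split.

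The subsets of the urothelium were compared within each library. In bladder, none of the 10 was called between Krt5-high and Krt20-positive cells, where 1.32% of genes tested were called. Trp63 was at 102 CPM in Krt5-high and 57.8 CPM in Krt20-positive bladder cells (log2 0.82, interval 0.63 to 1.00), and Grhl3 at 71.2 and 116 CPM (log2 −0.70). Ovol1 was at 151 and 109.9 CPM (log2 0.46), and Klf5 at 419 and 526 CPM (log2 −0.33). In summed CPM, Trp63 and Ovol1 were higher in the Krt5-high subset and Grhl3 and Klf5 in the Krt20-positive one, each by less than 2-fold. In cells thinned to 2500 UMIs, Ovol1 was found in 24.1% of each subset. Grhl3 was found in 21.8% of Krt5-high (interval 15.8 to 28.7) and 25.3% of Krt20-positive cells (interval 22.8 to 27.9), which overlap. The 89 cells with both marks had Ovol1 at 92.2 CPM. The bladder Krt5-high cells still held Upk3a at 3844 CPM, against 5561 CPM in Krt20-positive cells, so the Krt5 rule did not pick cells free of uroplakin. Krt20 was found in 11.5% of bladder urothelial-like cells thinned to 2500 UMIs and 46.6% unthinned, so the Krt20-positive subset moved with depth.

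At 7 days, 3 factors were called between Krt5-high and Krt20-positive cells, where 12.4% of genes tested were called. Trp63 was at 161 CPM in Krt5-high and 46.3 CPM in Krt20-positive cells (log2 1.80), Grhl3 at 35.9 and 85.2 CPM (log2 −1.24), and Foxq1 at 1154 and 2336 CPM (log2 −1.02). Of the 249 Krt5-high cells 153 were assembloid-side, while 418 of the 426 Krt20-positive cells were bladder-side, so the subsets differed in side. Within the bladder side, with 93 Krt5-high and 418 Krt20-positive cells, none of the 3 was called. There Trp63 was at 77.8 and 46.0 CPM (log2 0.77), Grhl3 at 77.8 and 85.2 CPM (log2 −0.12), and Foxq1 at 1836 and 2342 CPM (log2 −0.35). The 1-day library, with 3 Krt20-positive cells, allowed no such comparison. Krt20-positive cells differed from the cells with neither mark in none of the 10 factors in bladder (0.123% of genes tested called) or at 7 days (1.78%). At 7 days Trp63 was at log2 −0.91 and Grhl3 at 0.48 with the sides pooled, but at −0.11 and 0.05 within the bladder side.

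Krt5-high cells were also set against the remaining urothelial-like cells of the same library, those with less Krt5 and no Krt20. None of the 10 factors was called in any of the 3 libraries (0.239%, 1.46% and 3.26% of genes called in bladder, at 1 day and at 7 days). Trp63 was higher with Krt5 in each, by log2 0.51 in bladder, 0.42 at 1 day and 0.89 at 7 days, and at 7 days by 0.66 within the bladder side and 0.29 within the assembloid side. Ovol1 was at 11.8 CPM in Krt5-high and 24.1 CPM in the remaining cells at 1 day, just short of the threshold (log2 −0.998 after adding 0.5 counts). Elf3 was at 120.4 and 187 CPM (log2 −0.63).

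**Figure D3:**
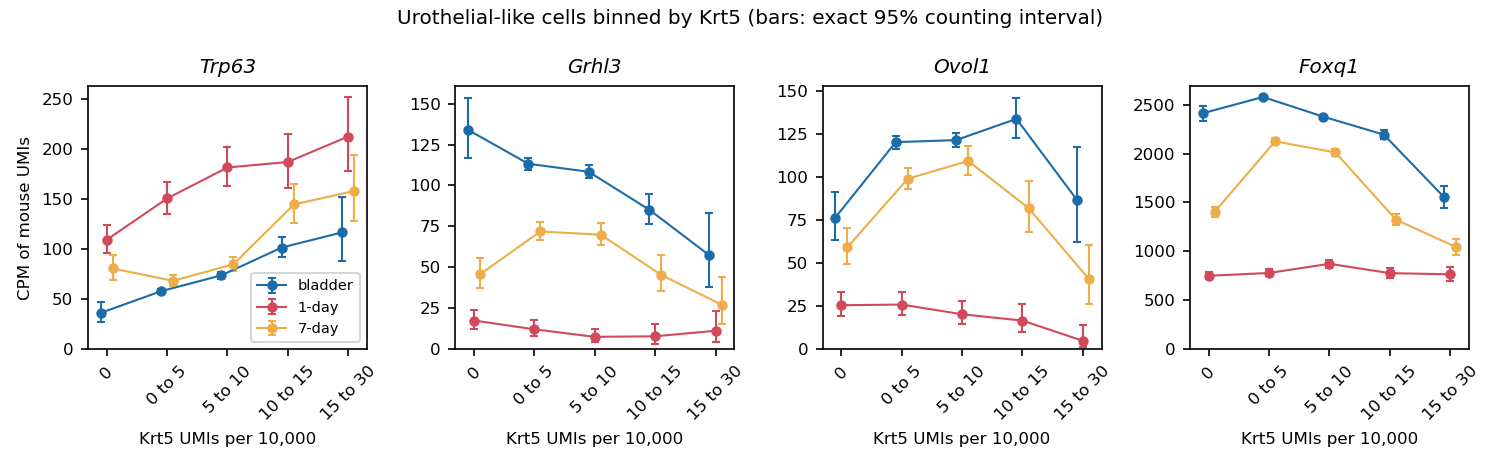
Levels of the factors (CPM) in urothelial-like cells binned by Krt5 (UMIs per 10000), for the 3 libraries. Trp63 climbed with Krt5 in bladder from 36.0 to 117 CPM and at 1 day from 109 to 212 CPM, and Grhl3 in bladder went down from 134 to 57.2 CPM, while at 7 days neither followed a steady order.

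Finer bins of Krt5 gave the levels along its range. In bladder, Trp63 was at 36.0 CPM in cells with no Krt5 UMI, then 57.8, 73.7, 101 and 117 CPM in bins ending at 5, 10, 15 and 30 Krt5 UMIs per 10000. At 1 day the same bins held 109, 150.4, 181, 187 and 212 CPM. The bins differ in depth. Cells with no Krt5 UMI had a median of 4380 UMIs at 1 day (453 cells) and 12200 in bladder (96 cells), so no Krt5 UMI does not show that Krt5 was lacking, and the highest bladder bin held 38 cells. At 7 days, where the sides are mixed, Trp63 was at 80.4, 68.1, 84.7, 144 and 158 CPM, with no steady order in the lower bins. Grhl3 in bladder ran the other way, at 134, 113, 108, 85.3 and 57.2 CPM, and at 7 days it was at 45.8, 71.9, 69.9, 45.3 and 27.2 CPM. Elf3 was at 239 CPM without a Krt5 UMI and 123 CPM in the highest bin at 1 day, but in bladder at 123 and 167 CPM in the same bins. Ovol1 in bladder was at 76.5, 120.4, 122, 134 and 86.9 CPM, highest in the bin from 10 to 15.

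Subsets matched by Krt5 still differed between libraries. Among Krt5-high cells, 1 day against bladder, Ovol1 was at log2 −3.64 (interval −4.40 to −3.03), Grhl3 at −2.87, Foxq1 at −1.47 and Klf4 at −1.30, all called, where 10.4% of genes tested were called higher and 6.59% lower. Trp63 was not called among Krt5-high cells (log2 0.93). Among the remaining cells, Grhl3 was at −3.07, Ovol1 at −2.46, Foxq1 at −1.66, Klf4 at −1.62 and Trp63 at 1.02, all called (17.6% of genes tested). The 4 lower factors were therefore lower in both subsets. Krt5-high cells of the whole 7-day library differed from those of bladder in Ovol1 alone (log2 −1.28, 7.22% of genes tested called), and the 153 assembloid-side ones in the same 5 factors as at 1 day over all urothelial-like cells (16.3%).

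Outside the urothelium, 9 of the 10 factors were called lower than in urothelial-like cells in bladder, and Klf4 was called higher there. Of all genes tested in bladder, 13.8% were called higher in urothelial-like cells and 33.6% lower. Foxq1 was 54.4-fold, Elf3 45.9-fold, Ovol1 41.7-fold, Foxa1 40.2-fold, Grhl3 34.8-fold, Trp63 30.4-fold, Gata3 27.1-fold, Klf5 16.9-fold and Pparg 4.47-fold higher in urothelial-like cells than in all other bladder cells. The level of Pparg in other cells was 19.9 CPM, and it reached 32.0 CPM in endothelial-like cells, 21.0 CPM in fibroblast-like cells and 1.18 CPM in smooth-muscle-like cells. In endothelial-like cells this was 35.9% of its urothelial level, where Upk3a, Upk1a, Krt15, Upk2, Wfdc2 and Ly6d stood at 2.04% to 3.35% of theirs. In the 1-day library 8 of the 10 were called higher in urothelial-like cells (19.2% of genes tested called higher) and in the 7-day library 9 (16.6%). Grhl3 at 1 day stayed below the minimum of 20 CPM.

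**Figure D4:**
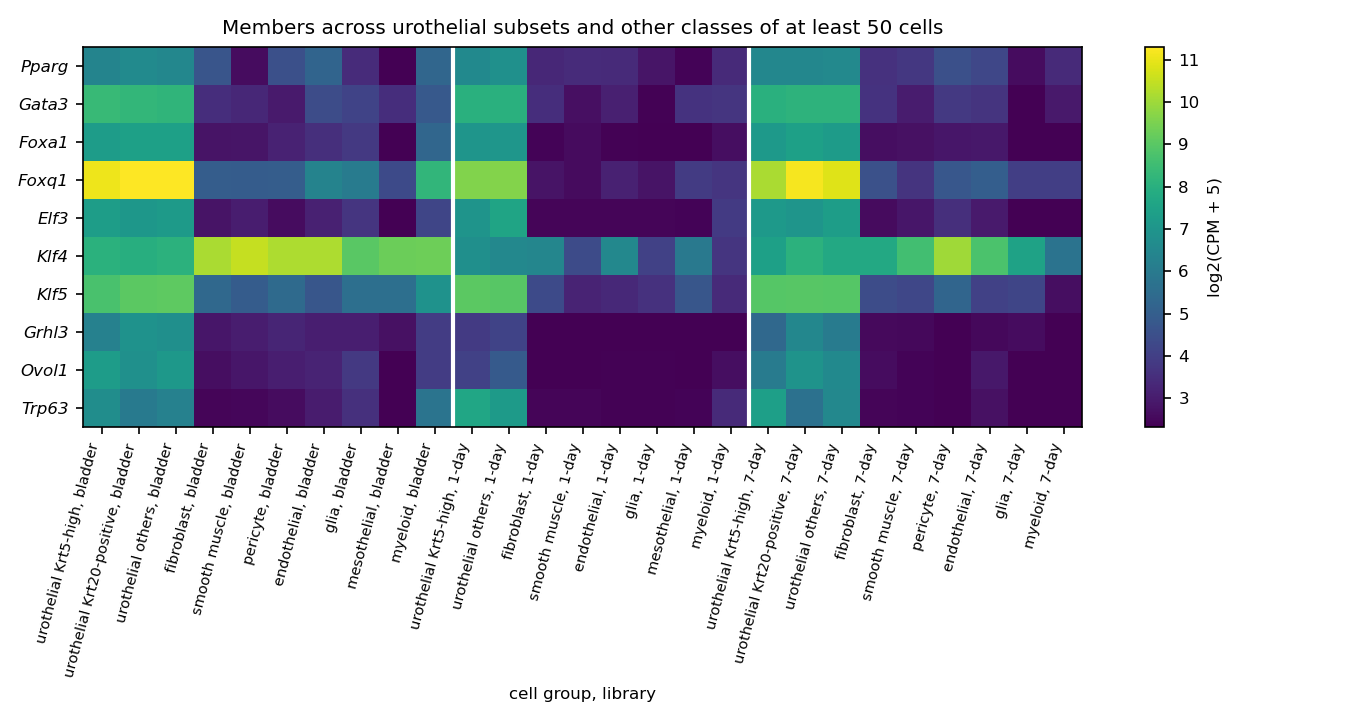
Level of the 10 factors (CPM, colour on a log scale) in each cell class of the 3 libraries. All but Klf4 stood out in urothelial-like cells, except that Trp63 also reached a similar level in the 61 bladder myeloid-like cells. There 3 cells carried all its UMIs. Klf4 was highest in the stromal classes of the bladder library.

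Klf4 was the exception. In bladder it was at 1451 CPM in smooth-muscle-like, 1180 CPM in pericyte-like, 1162 CPM in endothelial-like and 1152 CPM in fibroblast-like cells, against 257 CPM in urothelial-like cells (log2 −2.15 for urothelial-like against all other cells). At 1 day it was at 15.5 CPM in smooth-muscle-like, 87.3 CPM in endothelial-like and 82.7 CPM in fibroblast-like cells. Over all other cells it was at 1135 CPM in bladder, 82.7 CPM at 1 day and 169.7 CPM at 7 days, with 1076 CPM in the bladder-side and 112 CPM in the assembloid-side cells of the 7-day library. The 17 immediate-early genes summed in the same other cells to 23578 CPM in bladder, 1409 CPM at 1 day and 2915 CPM at 7 days, and their part in the Klf4 levels was not tested.

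**Figure D5:**
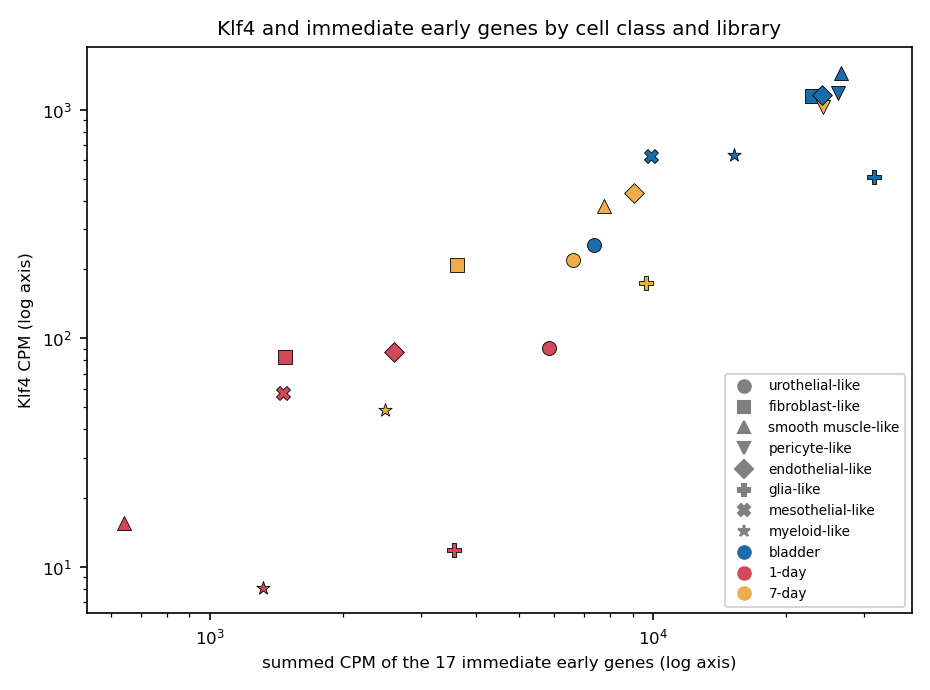
Klf4 level against the summed level of 17 immediate-early genes (CPM, both axes log) in cell classes of at least 50 cells in the 3 libraries. Stromal classes of the bladder library lay above 1000 CPM, and those of the 1-day library below 100 CPM.

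Detection of Grhl3 and Trp63 in single urothelial-like cells at equal depth gave the same order of libraries as the summed levels. In cells thinned to 2500 UMIs, Grhl3 was found in 22.7% of bladder, 2.13% of 1-day and 13.7% of 7-day urothelial-like cells, and in 0.662%, 0% and 0.110% of all other cells. The 0 of 6627 other cells at 1 day allows a share of cells with a UMI at this depth of up to 0.0453%. It does not limit the share of cells expressing the gene, since unthinned 0.0736% of those cells held a Grhl3 UMI. The 7-day share was 3.33% on the assembloid side and 18.2% on the bladder side. Unthinned, Grhl3 was found in 77.0%, 5.87% and 38.3% of urothelial-like cells. Trp63 was found in 16.5%, 31.4% and 19.4% of thinned urothelial-like cells and in at most 0.460% of other cells, but unthinned in 69.0%, 50.2% and 44.5%, where depth differed. A bladder urothelial-like cell held a UMI of 3.98 of the 10 factors on average at this depth, a 1-day cell 3.33 and a 7-day cell 3.72. At least 3 of the 10 were seen in 85.6%, 73.7% and 80.8% of these cells, and in 1.75%, 0.05% and 0.68% of the other cells.

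Across 30 groups of cells (cell classes and urothelial subsets by library), the genes whose log2 levels ran most like each factor were listed by Pearson's r over 9959 genes. These groups share libraries and depth, and r is a description of the contrast between epithelium and other cells. Grhl3 ran closest to Areg (r = 0.988) and Defb1 (0.987), Ovol1 to Cyp4f15 (0.986) and Snx31 (0.985), and Foxq1 to Sfn (0.992) and Cldn4 (0.991). Trp63 ran closest to Padi4 and Hcar2 (both 0.986), Foxa1 to Syt8 and Ehf (both 0.994), Gata3 to Mgst2 (0.987) and Epcam (0.986), and Elf3 to Lypd3 and Tmem45b (both 0.992). Klf5 ran closest to Gsta4 (0.976) and Map7 (0.974) and Pparg to Slc14a1 (0.936) and Ctse (0.935). Klf4 ran closest to Ppp1r15a (0.934) and Cyth3 (0.933). Among the 10 themselves, r lay between 0.027 and 0.262 for pairs with Klf4 and between 0.841 (Grhl3 with Trp63) and 0.986 (Grhl3 with Ovol1) for all other pairs.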

How the data were processed

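Per the file headers and the labels, the authors dissociated tissue, built 10x Chromium Single Cell 3′ v3 libraries and deposited filtered matrices of raw UMI counts made with Cell Ranger 3.1.0 on a combined human and mouse reference; builds GRCh38, mm10 and hg38 are named in the submitters' processing notes. The sources used here do not give the annotation release or whether counting used strand. The matrices held 8642, 9039 and 9548 barcodes and 93560608, 135955678 and 120301672 UMIs (bladder, 1 day, 7 days).

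Kept cells had at least 90% mouse UMIs, at least 500 genes and under 20% mitochondrial UMIs, and were not marked by Scrublet as doublets (3.39%, 3.28% and 2.41% marked). This left 6775, 8258 and 8172 cells with median depths of 7543, 14938 and 9399 UMIs. Scanpy 1.11.5 clustered them (2000 variable genes, 30 components, 15 neighbours, Leiden resolution 1) without the 10 factors, Krt5 and Krt20. Clusters were named from marker lists, and 6, 2974 and 1660 cells stayed unnamed. Sides of the 7-day library were set by the 30 nearest bladder and 1-day cells.

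Summed counts were compared with exact conditional binomial intervals, since 1 library a group allows no test. For the ratios, 0.5 counts were added, and the intervals used the counts as they were. Shares used cells thinned to 2500 UMIs. The procedure was checked on simulated counts. All members are described; genes of the lists were named among the 4 with the largest ratio per list and comparison, and Grhl2, Ovol2 and 9230102O04Rik were named after their values were seen. The members and lists were chosen with earlier results of these data known.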

Additional observations from a re-analysis of the deposited data

Results flagged for a closer look

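Some contrasts ran in opposite directions in different libraries. With 1 library a group, these differences between libraries were not tested. The ratio of Klf4 between urothelial-like and all other cells was −2.15 on the log2 scale in bladder but 0.14 at 1 day, and −2.15 in bladder but 0.37 at 7 days. Within the 7-day library both sides were negative on their own, at −2.05 among bladder-side and −0.08 among assembloid-side cells, so the sign at 7 days held only with the sides pooled. Between Krt5-high and the remaining urothelial-like cells, Ovol1 stood at 0.19 in bladder and −0.998 at 1 day, and at 0.19 in bladder and −0.54 at 7 days. Within sides of the 7-day library, Ovol1 was at 0.21 (bladder-side) and 0.07 (assembloid-side), the same sign as in bladder. In the same contrast, Klf4 stood at 0.28 at 1 day and −0.30 at 7 days, but at 0.16 on each side of the 7-day library taken alone.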

How the results depend on the processing

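Of 242 recomputed counts of called factors, 228 stayed within 1.5 times the main count. Of 1180 other recomputed values, 961 were labelled the same, 218 moved and 1 reversed. Median-of-ratios scaling, other cell and level filters, other clustering resolutions, clustering with the factors included, keeping doublets and removing shared barcodes changed none of the counts between libraries. Bladder-side cells alone, subsets compared within a side, Krt5-high cells alone and leaving out the cluster led by Fxyd4 were settings chosen after seeing the data. For 7 days against 1 day, the count higher went to 0 with assembloid-side cells (Ovol1 turned to −0.00025 on the log2 scale) and to 2 among Krt5-high cells, and the count lower went to 1 with bladder-side cells (Trp63, −1.65) or without the Fxyd4 cluster (Trp63, −1.22). For 7 days against bladder, assembloid-side cells gave 1 higher and 4 lower, and Krt5-high cells 1 lower (Ovol1, −1.28). For 1 day against bladder, 0 were higher among Krt5-high cells. For Krt5-high against the remaining cells, the count lower went to 1 at 1 day with the mean of per-cell CPM (Ovol1, −1.41) or under 10% mitochondrial UMIs (Ovol1, −1.08), and to 1 at 7 days with Krt5 at 20 or more per 10000 (Grhl3, −2.04). The count higher there went to 1 without the Fxyd4 cluster (Trp63, 1.01). For urothelial-like against other cells at 7 days, the count lower went to 1 with the mean of per-cell CPM (Klf4, −1.03) or bladder-side cells (Klf4, −2.05). Krt5 at 20 or more per 10000 was not run in bladder, which had 8 such cells. No paired analysis was possible because each group had 1 library. Below about 20 CPM, and for Grhl3 at 1 day with 96 UMIs, depth limits what could be seen.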

Other observations

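Small clusters of bladder urothelial-like cells stood apart in these factors. A cluster of 42 bladder cells with Krt15 at 4649.7 CPM, Krt5 at 868 CPM and Upk3a at 456 CPM had Klf4 at 1100.0 CPM and Trp63 at 209 CPM (interval 176 to 246), with Grhl3 at 58.4 CPM and Ovol1 at 115 CPM. A cluster of 13 bladder cells with Upk3a at 8857 CPM, Krt20 at 304 CPM and Krt15 at 47.0 CPM had Trp63 at 9.79 CPM, Ovol1 at 23.5 CPM, Klf5 at 213 CPM and Grhl3 at 133 CPM. In those 13 cells pericyte markers summed to 1293 CPM, with 6 of 8 at 0, against 114 CPM in all bladder urothelial-like cells. Mesothelial markers summed to 599 CPM, with 8 of 9 at 0, against 233 CPM. The mesothelial list holds Upk3b, which is also on the urothelial list and was a urothelial marker of this cluster. The mesothelial sum therefore cannot be read as mesothelial RNA. The part of either list was not tested. At 1 day, the cluster of 884 cells had Trp63 at 178 CPM, Elf3 at 140 CPM and Pparg at 88.4 CPM, and the cluster of 552 cells, led by Fxyd4, had them at 117, 230.4 and 134 CPM. Grhl3 was at 7.35 and 19.5 CPM in these clusters. The summed hypoxia genes were at 5219 CPM in the first and 9320 CPM in the second.

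Trp63 was at 50.5 CPM in 61 bladder myeloid-like cells, where 3 cells carried all 15 UMIs. This was 75.8% of its urothelial level, Foxa1 stood at 20.2% and Elf3 at 9.72%, while Upk3a, Upk1a, Krt15, Upk2, Wfdc2 and Ly6d in these cells stood at 4.73% to 14.0% of theirs. The lncRNA gene 9230102O04Rik, which overlaps Gata3, was at 26.9 CPM in bladder, 4.10 CPM at 1 day and 23.7 CPM at 7 days in urothelial-like cells (1715, 33 and 475 UMIs). Whether its reads can be told apart from those of Gata3 depends on strand use in counting, which is not given in the sources used here.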
